A study of Gallus gallus with 6 samples.

Results

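Genes associated with the immune system were examined in the basilar papilla, the auditory sensory organ of the chicken (Gallus gallus) inner ear: IL16, IL1RL1, CD3E, TRIM25 and IL4I1. They were found by name in the authors' deposited tables of changed genes, which gave 5 genes of the 15955 in the count table. All 5 stand in the table from edgeR, which lists 3.45% of the genes with a count, and IL16, CD3E and TRIM25 also stand in that from DESeq2, which lists 3.01%. Embryos received virus in the right otocyst on embryonic day 3, and their papillas were collected on embryonic day 6. The control group carried the parent RCAS(A) virus, an avian retrovirus able to replicate, and the other group carried RCAS(A)-Wnt9a, that virus with Wnt9a inserted. Each group held 3 libraries, numbered 2, 3 and 4 for RCAS(A) and 1, 2 and 3 for RCAS(A)-Wnt9a, and each library came from a pool of 24 papillas. Every library came from infected tissue, so no value here compares infected with uninfected papillas. A replication-competent virus can spread between cells and the labels name no promoter or cell type limiting it, so the cells that made Wnt9a are not known from them.

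The 5 genes belong to different arms of immunity. IL16 encodes a PDZ-domain precursor from which, in mammals, a cytokine that binds CD4 is cut. IL1RL1, also called ST2, is a receptor of the interleukin-1 family that binds interleukin-33 in mammals. CD3E encodes a signalling chain of the T cell receptor complex, and T cells of the chick mature in the thymus at later embryonic stages. TRIM25 is a ubiquitin ligase that activates the RNA sensor RIG-I in mammals, a sensor that chickens lack. IL4I1 is a secreted L-amino-acid oxidase made by antigen-presenting cells in mammals. A gene's link to immunity is its known role in other tissues and is not evidence of immune cells in the papilla.

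The count table held 19200235 to 23017150 counts per library. WNT9A itself stood at 6.87 to 10.3 CPM (library-size-scaled counts, with TMM factors) in the RCAS(A) libraries and at 1340, 539 and 427 CPM in RCAS(A)-Wnt9a replicates 1, 2 and 3. Of 12133 genes tested, 276 (2.27%) passed a Benjamini-Hochberg adjusted p of 0.05 in edgeR's quasi-likelihood test, 1.43% higher and 0.841% lower with RCAS(A)-Wnt9a, and without RCAS(A) replicate 2 or 4 the number was 148 or 146. Because the 5 genes were chosen from the authors' tables of this same contrast, their differences between the groups are given as a description and nothing is read from how many of them passed. Of the 5, 4 had enough counts to be tested: CD3E was higher past the threshold, IL16 and IL1RL1 were lower past it, and TRIM25 missed it. The libraries of the groups did not overlap for any of the 4, a separation that 19.0% of all tested genes showed, 9.82% with RCAS(A)-Wnt9a higher and 9.16% with it lower. The last gene inside the threshold was HDAC9 (edgeR adjusted p = 0.0498, log2 fold change -0.58) and the first outside was TBX3 (adjusted p = 0.0501, log2 fold change 0.86). In the authors' deposited tables the highest adjusted p listed was 0.0497 from edgeR and 0.0488 from DESeq2.

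IL16 was the secreted-signal gene of the group (ENSGALG00000006388, galGal4 chromosome 10, listed from 11600709 to 11632184). It stood at 20.9, 23.4 and 21.4 CPM in RCAS(A) replicates 2, 3 and 4 and at 6.98, 10.3 and 9.08 CPM in RCAS(A)-Wnt9a replicates 1, 2 and 3. All RCAS(A)-Wnt9a libraries were therefore lower than every RCAS(A) library, at 31.8% to 46.9% of the RCAS(A) mean. The group means were 21.9 ± 1.30 and 8.78 ± 1.67 CPM (SD, n = 3 each), a log2 fold change of -1.32 (SE 0.14), or 2.50-fold lower, and edgeR placed it at adjusted p = 0.000183. Its difference kept its side of the threshold in each of the 6 fits that left out 1 library, with a log2 fold change of -1.45 to -1.17. It also had the lowest p among the 4 of these genes that were tested, rank 16 of the 12133 tested. In the authors' deposited table from edgeR its log2 fold change was -1.32, and in that from DESeq2 it was -0.88. DESeq2 fits made here gave IL16 -1.32 without a prior on fold changes and -0.88 with a prior, which shrinks them by construction.

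IL1RL1 was the receptor gene (ENSGALG00000016785, chromosome 1, 133227060 to 133252726), described in the authors' deposited table as isoform L. Its counts were low: 44, 43 and 31 in RCAS(A) replicates 2, 3 and 4 and 18, 21 and 9 in RCAS(A)-Wnt9a replicates 1, 2 and 3. The corresponding levels were 1.90, 1.97 and 1.53 CPM against 0.81, 0.93 and 0.48 CPM, so the groups did not overlap. The means were 1.80 ± 0.24 and 0.74 ± 0.24 CPM (SD, n = 3 each), which is -1.26 on the log2 scale (SE 0.30) with an edgeR adjusted p of 0.0421. The gene stood close to the threshold: it missed it without any single library, RCAS(A) or RCAS(A)-Wnt9a, with adjusted p of 0.0685 to 0.156, while its log2 fold change stayed between -1.46 and -1.04. IL1RL1 also missed it with DESeq2 (adjusted p = 0.0836), with DESeq2 with a prior (0.0904) and with library size alone (0.0543). The gene passed with edgeR's exact test (0.0016), which called 4.15% of all genes tested, and with limma-voom (0.0488). In edgeR's quasi-likelihood test it passed with a replicate block (0.0136), every counted gene (0.0353) and DESeq2 size factors (0.0424). Its spread between libraries, a coefficient of variation of 13.1% in RCAS(A) and 31.9% in RCAS(A)-Wnt9a, was close to the 15.9% and 25% that counting alone gives at these depths.

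CD3E was the most abundant of the 5 and the tested gene that was higher with RCAS(A)-Wnt9a (ENSGALG00000007416, chromosome 24, 5471598 to 5478513). RCAS(A) replicates 2, 3 and 4 held 161.7, 137.6 and 161.4 CPM, and RCAS(A)-Wnt9a replicates 1, 2 and 3 held 281.7, 232.4 and 218.7 CPM. Every RCAS(A)-Wnt9a library was above every RCAS(A) library, at 142% to 183% of the RCAS(A) mean. The means were 153.6 ± 13.9 and 244.3 ± 33.2 CPM (SD, n = 3 each), a log2 fold change of 0.67 (SE 0.10), or 1.59-fold, at an edgeR adjusted p of 0.00547. In fits without 1 library the log2 fold change ran from 0.56 to 0.74 and the adjusted p from 0.00137 to 0.0270. With 3005 to 6260 counts per library, counting gives a coefficient of variation of 1.73% in RCAS(A) and 1.39% in RCAS(A)-Wnt9a, and the measured ones were 9.03% and 13.6%. The spread of CD3E between pools of a group was therefore well above counting error.

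TRIM25, the ubiquitin ligase (ENSGALG00000003144, chromosome 18, 6254681 to 6261401), stood at 19.3, 17.1 and 17.4 CPM in RCAS(A) replicates 2, 3 and 4. RCAS(A)-Wnt9a replicates 1, 2 and 3 held 11.4, 14.0 and 13.6 CPM, below all RCAS(A) libraries. The means were 17.91 ± 1.21 and 13.02 ± 1.38 CPM (SD, n = 3 each) and the log2 fold change was -0.46 (SE 0.12), which missed the threshold in the edgeR quasi-likelihood test (adjusted p = 0.0615). It passed with DESeq2 (adjusted p = 0.0268), which called 3.64% of the genes it tested, with edgeR's exact test (0.0124), which called 4.15%, and when every gene with at least 1 count was tested (0.0497), which called 2.16%. It missed with limma-voom (adjusted p = 0.0614). In each of the 6 edgeR fits that left out 1 library it also missed, with adjusted p of 0.0664 to 0.259. Its log2 fold change in those fits was -0.52 to -0.37. The approximate 95% interval of TRIM25 on the log2 scale in the main fit ran from -0.69 to -0.23. Unlike the adjusted p, that interval takes no account of the number of genes tested.

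IL4I1, the amino acid oxidase (ENSGALG00000000081, chromosome 16, 191142 to 194187), had 15 counts in all. No RCAS(A) library had a count, which over the group allows up to 3 counts, or 0.0460 CPM. RCAS(A)-Wnt9a replicates 1, 2 and 3 had 11, 4 and 0 counts, so replicate 3 did not differ from the RCAS(A) libraries. Summed over its libraries, RCAS(A)-Wnt9a held 0.236 CPM with an exact Poisson interval of 0.132 to 0.389, which covers counting error only. Against that floor the summed RCAS(A)-Wnt9a level was 5.14-fold higher. Only the RCAS(A) side of this ratio is bounded, as the RCAS(A)-Wnt9a level was taken as measured, without its own error. The ratio rests mostly on replicate 1: without that replicate 4 counts remained and the ratio was 2.11-fold. Leaving out 1 RCAS(A) library, which raises the floor by construction, gave ratios of 3.31- to 3.54-fold. IL4I1 had too few counts for the main fit, and with every counted gene tested edgeR gave an unadjusted p of 0.0132 and an adjusted p of 0.232. The authors' deposited table from edgeR lists a log2 fold change of 5.35 with an adjusted p of 0.0175, a value that against 0 counts depends on the prior count. A pattern of no count in RCAS(A) and counts in at least 2 RCAS(A)-Wnt9a libraries was found in 62 of 14512 genes with a count, or 0.427%. Of the 14512 genes with a count, 12133 had enough counts to be tested, and how many of the 62 did was not counted. The share among genes as scarce as IL4I1 was not taken, and the reverse pattern was not counted.

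**Figure D1:**
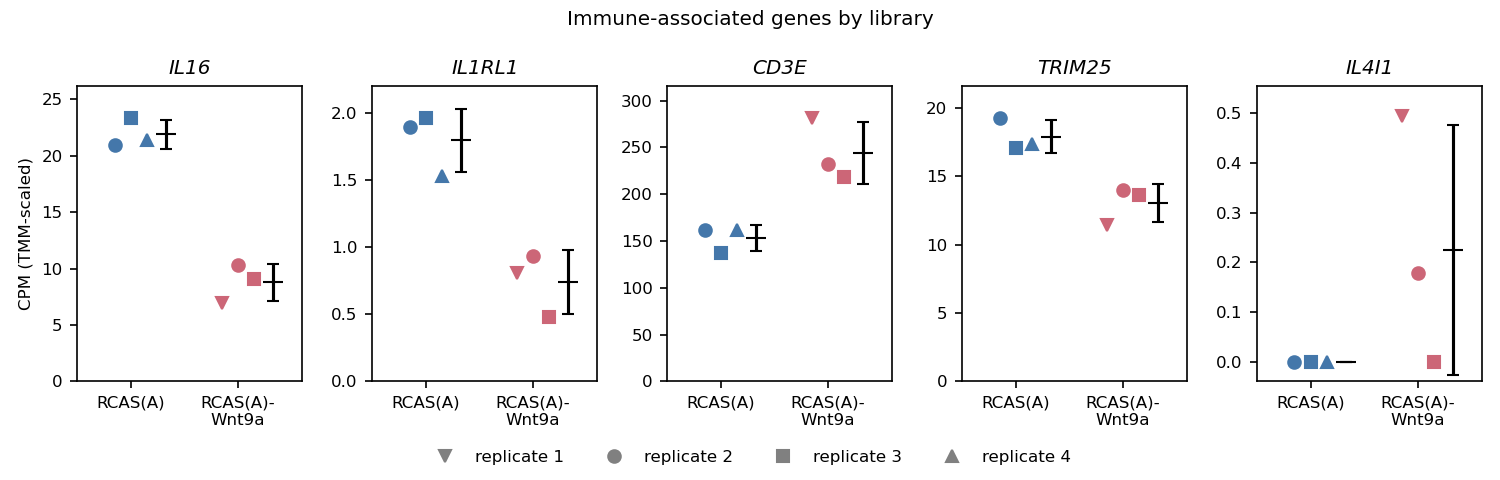
CPM (TMM-scaled, vertical axis) of the 5 genes in each library, 1 panel per gene with its own scale; marker shapes give the replicate number, and the horizontal tick with bars is the mean ± SD of 3 libraries. CD3E is higher and IL16, IL1RL1 and TRIM25 are lower in all RCAS(A)-Wnt9a libraries, while IL4I1 is at 0 in 4 of the 6 libraries.

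Levels between the genes were compared per length, as FPKM (fragments scaled to transcript length and library size), of which the authors deposited 1 pooled value per group with confidence bounds and no replicates. CD3E had 54.3 FPKM in RCAS(A) (bounds 45.0 to 63.6) and 86.5 in RCAS(A)-Wnt9a (bounds 71.9 to 101.04), at or above 87.2% and 92.8% of the 15793 genes listed. The gene annotated as CD3E was thus among the more abundant ones counted in this tissue. TRIM25 had 8.85 and 6.64 FPKM, IL16 5.09 and 2.06, and IL1RL1 1.72 and 0.74. IL4I1 is listed at 0 in RCAS(A) and at 0.163 FPKM in RCAS(A)-Wnt9a. The order from CD3E through TRIM25, IL16 and IL1RL1 to IL4I1 was the same in both groups, and the bounds of neighbours in that order overlapped only for IL1RL1 (0.246 to 1.23) and IL4I1 (0 to 0.335) in RCAS(A)-Wnt9a. In bulk RNA, fewer cells of a type and less RNA per cell cannot be told apart.

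The RCAS(A)-Wnt9a pools differed in WNT9A, with replicate 1 at more than the sum of the other two. In that replicate CD3E was highest (183% of the RCAS(A) mean, against 151% and 142% in replicates 2 and 3) and IL16 lowest (31.8%, against 46.9% and 41.4%). TRIM25 was also lowest there, at 63.8% against 78.0% and 76.1%. IL1RL1 was not: it was lowest in replicate 3, at 26.5%, against 45.0% and 51.9% in replicates 1 and 2. Between replicates 2 and 3, IL16 and TRIM25 were also lower in replicate 3, which had less WNT9A than replicate 2. The 11 and 4 counts of IL4I1 were in the libraries with more WNT9A. With 3 pools per group no test of such an order was made. Without replicate 1 the log2 fold changes were -1.17 for IL16, 0.56 for CD3E and -0.37 for TRIM25.

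**Figure D2:**
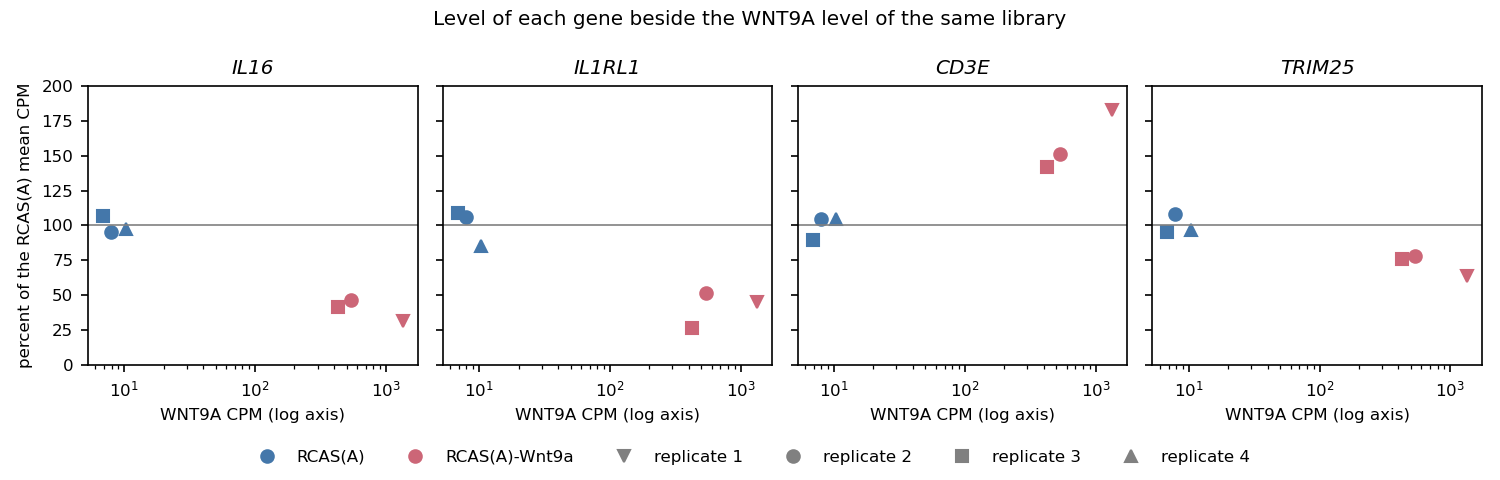
Level of the 4 tested genes as a percentage of the RCAS(A) mean CPM (vertical axis) against the WNT9A level of the same library in CPM (horizontal log axis); colours give the group and shapes the replicate. RCAS(A)-Wnt9a replicate 1, with 1340 CPM of WNT9A, has the highest CD3E and the lowest IL16 and TRIM25, and its IL1RL1 lies between the other two.

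The 20 nearest genes, 2 on each side of each of the 5, were read for shared reads or shared differences, as the kit was stranded but no source used here gives the strand setting of the counting. Of these, 18 were tested, 1 was higher past the threshold and 1 lower, where 1.43% and 0.841% of all tested genes were, and nothing is read from counts of 1. The higher one was MPZL2, an adhesion protein of the immunoglobulin family, which ends 949 bases before CD3E begins in galGal4 as listed. MPZL2 had 78.5, 88.2 and 83.3 CPM in RCAS(A) replicates 2, 3 and 4 and 110.4, 113.0 and 117.1 CPM in RCAS(A)-Wnt9a replicates 1, 2 and 3, 0.45 higher on the log2 scale (SE 0.06) at an edgeR adjusted p of 0.00178. Over the RCAS(A)-Wnt9a replicates MPZL2 was lowest in replicate 1, where CD3E was highest. For RCAS(A) replicates 2, 3 and 4 the ratio of CD3E to MPZL2 counts was 2.06, 1.56 and 1.94, for RCAS(A)-Wnt9a replicates 1, 2 and 3 it was 2.55, 2.06 and 1.87, and it overlapped between the groups. In the RefSeq table of the later GRCg7b assembly the annotated spans of MPZL2 and CD3E overlap and the next gene after CD3E is CD3D, which encodes its partner chain. The same table also has LOC415472 overlapping IL16 and DGKE overlapping TRIM25, and the files' identifiers were not paired with these names. What part reads shared with MPZL2 or with those genes have in the counts of CD3E, IL16 and TRIM25 was not tested. On the other side of CD3E, the nearest gene in the files (ENSGALG00000007418, to which they give no name) had 17 to 35 counts per library and 1.94 and 2.06 FPKM, against 54.3 and 86.5 for CD3E. Its log2 fold change was 0.03 (SE 0.32).

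The lower neighbour lay beside IL1RL1. ENSGALG00000016784, described in the authors' deposited tables only as an uncharacterized protein, ends 18024 bases before IL1RL1. Its level went from 24.6 ± 1.05 to 17.4 ± 1.99 CPM (SD, n = 3 each), a log2 fold change of -0.50 (edgeR adjusted p = 0.0214), a call lost without any single RCAS(A) library or without RCAS(A)-Wnt9a replicate 1, with adjusted p of up to 0.0971. On the other side ENSGALG00000016786, 6974 bases away, had a log2 fold change of -0.37 (SE 0.22) with overlapping libraries, and the gene after it had 0 to 3 counts per library. In RefSeq's GRCg7b order IL1RL1 lies between other interleukin receptor genes, IL1R1 and IL1RL2 on one side and IL18R1 and IL18RAP on the other, but the files' identifiers were not paired with these names. The nearest genes of IL16, TRIM25 and IL4I1 held no gene past the threshold. For IL16 the 4 neighbours had log2 fold changes of 0.06 to 0.17, against -1.32 for IL16.

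**Figure D3:**
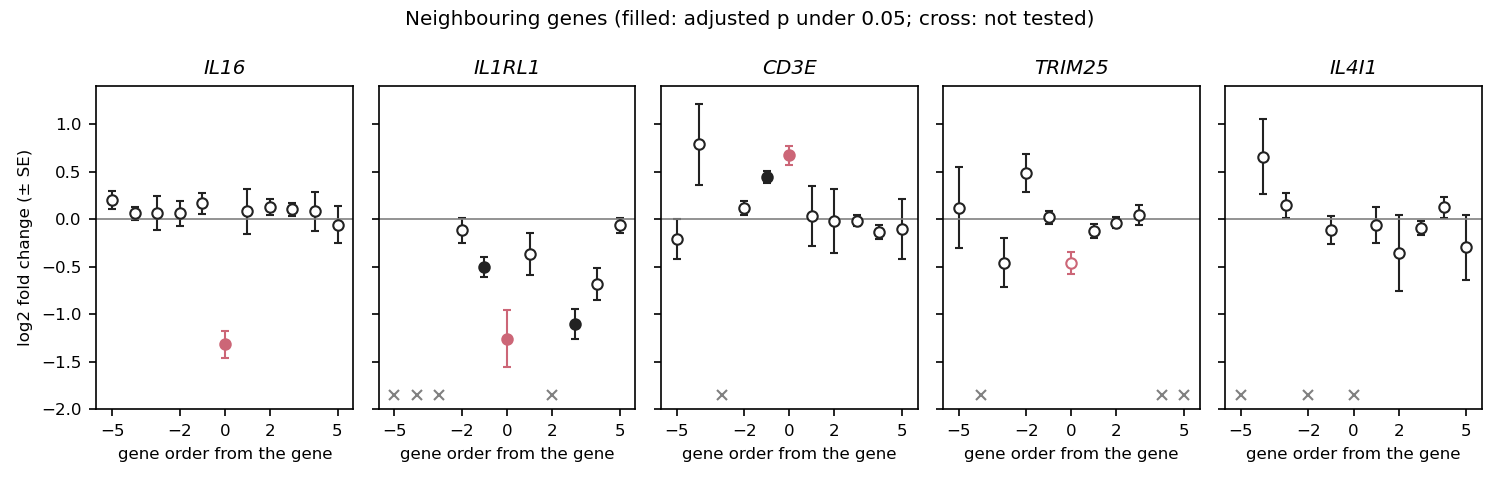
Log2 fold change with its SE (vertical axis) of the genes up to 5 places before or after each of the 5 genes in chromosome order (horizontal axis, the gene itself at 0 in red); filled points have an edgeR adjusted p under 0.05, and crosses mark genes not tested. IL16 lies below all of its neighbours drawn, CD3E has MPZL2 beside it, and several genes around IL1RL1 lie below 0.

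Further genes of these pathways could be identified only among those that the authors' deposited tables call changed, since no other identifier comes with a name. Of 346 other genes in 14 lists of immune pathways and blood or vessel cell types, 7 had a name. No other member of the T cell, interleukin-1 receptor, interferon, cytokine or TRIM lists was named, and none of the 31 macrophage, 25 pan-leukocyte or 15 B cell genes was. A list gene without a name is not shown to be absent or unchanged, and whether the papillas held T cells or other leukocytes was not tested. Over the 11 list genes tested, which include the 4 described above, 4 rose, 5 fell and 2 missed the threshold, where 2.27% of all tested genes passed it. Without any 1 library, RCAS(A) or RCAS(A)-Wnt9a, 3 to 6 of the list genes passed in place of 9. Their median log2 fold change was -0.34 against -0.00 over all tested genes. These genes too were named because of this contrast, so nothing is read from how many passed.

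Among the 7, GATA2, a transcription factor of blood progenitors that is also expressed in the mouse otocyst, rose by 0.33 on the log2 scale (374.3 to 469.6 mean CPM). TFRC, the transferrin receptor of the erythroid list, rose by 0.24, and THBS1, a matricellular protein stored in mammalian platelets, fell by 0.34. The calls of GATA2, TFRC and THBS1 were each lost in 5 of the 6 fits that left out 1 library, with highest edgeR adjusted p of 0.150, 0.171 and 0.214. GATA2 kept its call without RCAS(A)-Wnt9a replicate 1, and TFRC and THBS1 without replicate 3. In the endothelium list the VEGF receptor gene FLT1 rose by 0.39, a call lost without any single library (adjusted p of up to 0.164), and the angiopoietin genes ANGPT1 and ANGPT2, ligands of the TIE2 receptor, fell by 0.57 and 0.48. ANGPT1 missed the threshold without RCAS(A) replicate 3 (adjusted p = 0.0533). TAT, a tyrosine aminotransferase in the list of amino acid catabolism that also holds IL4I1, had 0.423 and 1.08 mean CPM and missed the threshold (log2 fold change 1.30, adjusted p = 0.123). What part blood or vessel cells have in the values of the 5 genes was not tested.

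The genes whose pattern across the 6 libraries was most like each of the 4 were taken from 483 other tested genes with a name, by Pearson correlation of log2 CPM. All of these carry the group difference, so the coefficients mostly describe it and are given without a test. IL16 was closest to the neurotrophin gene BDNF (r = 0.995), the glycosyltransferase gene B3GNT7 (0.993), TECTB of the tectorial membrane (0.993), DLK1 (0.993) and the potassium channel gene KCNJ15 (0.992). CD3E was closest to VCL, which encodes the adhesion protein vinculin (0.994), followed by the lipoprotein receptor gene LRP8 (0.992), FGF19 (0.989), BOC (0.984) and CHL1 (0.984). TRIM25 was closest to MICALL2 (0.987) and USP44 (0.986), and IL1RL1 to the muscle transcription factor gene MYOD1 (0.969) and SPARCL1 (0.967). Among all tested genes, named or not, 19 were at least as close to IL1RL1 as MYOD1, with MYOD1 included. That number was 1 for BDNF with IL16, 1 for VCL with CD3E and 3 for MICALL2 with TRIM25. IL16 and TRIM25 correlated with each other at r = 0.952, and CD3E ran opposite to IL16 at r = -0.975 (n = 6 libraries in each case).

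**Figure D4:**
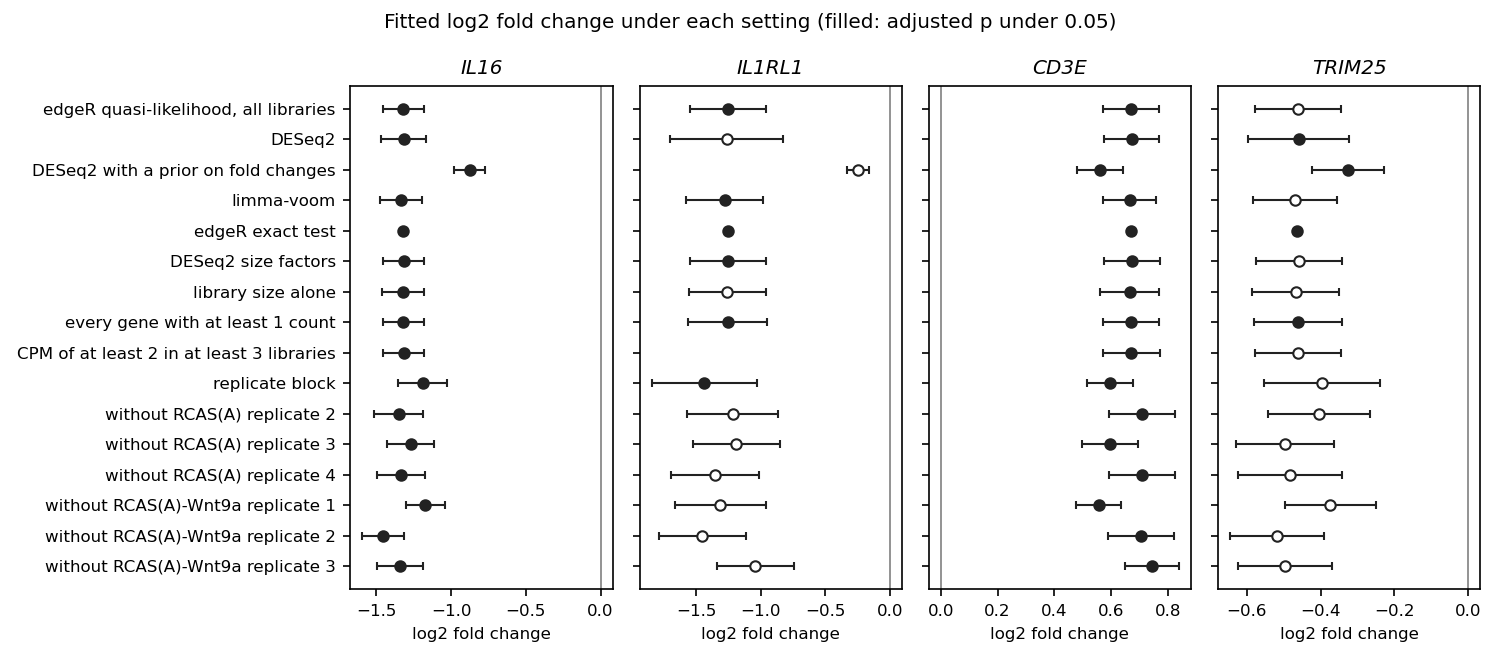
Fitted log2 fold change with its SE (horizontal axis, scale differs between panels) of the 4 tested genes under each test, scaling, filter and left-out library (vertical axis); filled points have an adjusted p under 0.05, and the exact test gives no SE. IL16 and CD3E pass under every setting, IL1RL1 loses its call without any single library, and TRIM25 passes under 4 settings.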

How the data were processed

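RNA of 6 libraries was read from the authors' deposited tables, with groups and replicate numbers from the sample titles. The build galGal4 and the tools TopHat2, DESeq, DESeq2 and edgeR are per the submitters' processing notes. How reads were counted, with which strand setting and annotation, is not given in the sources used here. One deposited table gives unscaled whole-number counts for Ensembl genes. Per the file headers, DESeq2 values are a Wald score, p-values, a baseMean signal and log2 fold changes with SE, and edgeR values are log2 fold changes, log2 CPM and p-values. FPKM was deposited as a pooled value for each group, with bounds of unstated level. Positions are as listed there.

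The filter filterByExpr kept 12133 of 15955 genes, which edgeR 4.0.16 in R 4.3.3 scaled by TMM and tested two-sided (robust glmQLFit, then glmQLFTest; adjusted p under 0.05). CPM is TMM-scaled. SE was derived from the log2 fold change and its F statistic. Pools are biological replicates per the labels. An exact permutation test of 3 against 3 libraries cannot reach the threshold, so calls rest on the model across genes. The script was tested on simulated data. Alternatives were DESeq2 1.42.0, limma-voom (limma 3.58.1), edgeR's exact test, other scalings and filters, a replicate block and leaving out each library. DESeq2 with a prior was added later, with the data in view. Python 3.11.15, pandas 2.3.3 and scipy 1.17.1 made the tables.

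The 5 genes and all lists were chosen with earlier results of these data known. Named genes are the 5, WNT9A, the 2 nearest genes on each side, named list members, the 5 named genes most correlated with each of the 4 tested over log2 CPM (prior count 2), and the genes next to the threshold. Of 492 named genes, 149 matched RefSeq (GRCg7b, names only) by accession, 324 by symbol and 10 by synonym. No sequences were used here.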

Additional observations from a re-analysis of the deposited data

How the results depend on the processing

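IL16 and CD3E kept their direction and their side of the threshold in all 15 alternative fits. IL1RL1 also missed the threshold with DESeq2 (adjusted p = 0.0836), with a prior (0.0904) and with library size alone (0.0543), and a CPM minimum of 2 in 3 libraries removed it. With a prior, DESeq2 gave IL1RL1 a log2 fold change of -0.25 and IL16 one of -0.88; the prior shrinks fold changes by construction. TRIM25 passed with DESeq2, with or without a prior, with the exact test and with every counted gene. Over all these fits the adjusted p of TRIM25 ran from 0.0124 to 0.259 and that of IL1RL1 from 0.0016 to 0.156. The directions were close to fixed in advance, as the groups did not overlap. Of the 5 genes, 2 to 4 passed in any fit, against 3. They were chosen from this contrast, so nothing is read from that count. Of all genes tested, 2.27% passed in the main fit, 3.64% with DESeq2, 4.15% with the exact test and 2.16% with every counted gene. The number of changed genes was 437 with DESeq2, with or without a prior, 503 with the exact test and 146 to 294 with 1 library left out, against 276. List genes past the threshold numbered 3 to 6 with 1 library left out, against 9; the causes were not tested. The titles share numbers 2 and 3 only, and correlations across genes of their deviations from the group means were -0.009 and 0.192, too few pairs to decide a pairing. The replicate block fit, in which unpaired libraries drop out of the contrast, called 537 genes and gave log2 fold changes of -1.19 for IL16, -1.44 for IL1RL1, 0.60 for CD3E and -0.40 for TRIM25. The mean of IL4I1 in RCAS(A)-Wnt9a was 0.089 to 0.336 CPM with 1 of its libraries left out, lowest without replicate 1. IL1RL1 and IL4I1 had the fewest counts of the 5 genes, and what part depth has in their values was not tested.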

Other observations

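The stretch around IL1RL1 held 2 further named genes outside the rule for neighbours, chosen after their values were seen. SLC9A4, a sodium and hydrogen exchanger gene that begins 47988 bases after IL1RL1 ends, stood at 32.6, 33 and 30.2 CPM in RCAS(A) replicates 2, 3 and 4 and at 10.8, 18.1 and 15.8 CPM in RCAS(A)-Wnt9a replicates 1, 2 and 3. Its log2 fold change was -1.10 (SE 0.16, edgeR adjusted p = 0.00429), and the call held without any single library (highest adjusted p = 0.0320). SLC9A2, another exchanger of that family and the next gene along, went from 12.2 ± 0.77 to 7.62 ± 1.90 CPM (SD, n = 3 each) and missed the threshold (log2 fold change -0.68, adjusted p = 0.0608). With ENSGALG00000016784 and IL1RL1 itself, 4 of the 7 genes tested among the 11 within 5 places of IL1RL1 were lower with no overlap between the groups, where 9.16% of all tested genes were. IL1RL1 was chosen from this contrast and the stretch after its values were seen, so nothing is read from that count. The next gene beyond SLC9A2, ENSGALG00000016792, had a log2 fold change of -0.07 (SE 0.08). SLC9A4 and IL16 were both lowest in RCAS(A)-Wnt9a replicate 1, while IL1RL1 was lowest in replicate 3.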
